A study of Mus musculus with 48 samples.

Results

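The genes described here are 33 genes of cholesterol and fatty acid synthesis and of their regulation by the SREBP transcription factors. Members are the rows whose symbol is on a list of 33 gene names, and all 33 were found among the 48321 rows of the RNA-seq table and passed the filter that left 16179 genes for testing. The members comprise 20 genes of the sterol branch (8 of the mevalonate and isoprenoid steps, 11 of the steps from squalene to cholesterol, and the sterol transfer gene Stard4), 5 genes of the SREBP machinery and 8 genes of fatty acid synthesis and desaturation. RNA was measured in male mouse embryonic stem cells of the R1 line (strain 129SV). All cells were kept in 2i+LIF, a serum-free medium that holds the cells in the naive pluripotent state with inhibitors of MEK and GSK3b. The 3 groups were wild-type cells (WT), cells with Mll3 and Mll4 knocked out (dKO), and cells whose Mll3 and Mll4 are catalytically deficient (dCD). Each group had 3 polyadenylated RNA libraries. Mll3 (Kmt2c) and Mll4 (Kmt2d) are histone methyltransferases that place monomethylation on H3K4 at enhancers, and the design separates loss of the proteins (dKO) from loss of their catalytic activity (dCD). The labels name 1 line per genotype, so a clone and its genotype cannot be told apart. The labels do not say that replicates were separate cultures, so the p-values reflect the scatter among these libraries alone, and that scatter may be technical.

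SREBP proteins are made as precursors in the membrane of the endoplasmic reticulum, where Scap escorts them and the Insig proteins retain them when sterols are plentiful. When sterols fall, the precursor moves to the Golgi, is cut by proteases and enters the nucleus, where it binds sterol regulatory elements in promoters together with NF-Y and Sp1. Srebf2 acts mainly on cholesterol genes and Srebf1 mainly on fatty acid genes, and Insig1 is itself an SREBP target, which gives the pathway a feedback loop. All proliferating cells, stem cells included, need both branches to make membrane.

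Promoter sequences show which of these elements lie close to the start sites. RefSeq promoters (GRCm38.p6) were matched by symbol for 26 of the 33 members, and the 250 bases before each start were searched on both strands. That build differs from the mm9 build in the submitters' processing notes, so the coordinates apply to the promoter table only. A core sterol regulatory element, TCACNCCAC, was found in Hmgcs1 alone, 1 of 26 members, against 1.22% of all genes with a promoter. A form without the last letter, TCACNCCA, was searched after that result was seen and was found in 3 of 26 members (Hmgcs1, Msmo1 and Srebf2), against 4.2% of genes. The NF-Y box CCAAT was far more frequent, in 20 of 26 members (76.9%) against 37.5% of genes, and so was the Sp1 box GGGCGG, in 21 of 26 (80.8%) against 35.4%. The E-box CANNTG, a further motif that SREBP can bind, was in 16 of 26 (61.5%) against 69.3%. These sets are unlike, since all members passed the expression filter, while the 27025 genes with a promoter outnumber the 16179 genes tested. No share was computed among tested genes only. The NF-Y box was unevenly spread over the roles, with 15 of 16 sterol members, 4 of 5 regulators and 1 of 5 fatty acid members (Fasn) holding one. A match is a description of letters, not evidence of binding, and a missing match says only that the letters are absent from this window.

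The Hmgcs1 promoter is printed for its core element. Those of Msmo1 and Srebf2 are shown for the shorter one, those of Insig1 and Cyp51 because these genes were among the members with the largest rise in dKO, and that of Acly because its level did not follow. These 5 were picked after the results were known. Each runs 5′ to 3′ on the gene's strand and ends at the base before the start site. Capitals mark a sterol regulatory element (TCACNCCA and, where present, its last C) or an NF-Y box, which reads CCAAT or, on the other strand, ATTGG.
Hmgcs1 (chr13:119690101-119690350, + strand): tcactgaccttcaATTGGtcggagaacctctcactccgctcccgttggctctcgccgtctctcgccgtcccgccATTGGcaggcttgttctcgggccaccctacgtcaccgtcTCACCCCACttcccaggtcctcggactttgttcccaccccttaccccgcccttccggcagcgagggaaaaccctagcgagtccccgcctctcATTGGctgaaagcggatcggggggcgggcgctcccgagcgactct
Insig1 (chr5:28071162-28071411, + strand): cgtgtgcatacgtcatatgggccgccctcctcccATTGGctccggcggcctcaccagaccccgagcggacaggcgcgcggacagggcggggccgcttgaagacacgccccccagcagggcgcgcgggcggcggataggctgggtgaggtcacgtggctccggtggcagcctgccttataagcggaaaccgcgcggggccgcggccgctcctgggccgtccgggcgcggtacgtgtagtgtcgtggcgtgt
Cyp51 (chr5:4104698-4104947, - strand): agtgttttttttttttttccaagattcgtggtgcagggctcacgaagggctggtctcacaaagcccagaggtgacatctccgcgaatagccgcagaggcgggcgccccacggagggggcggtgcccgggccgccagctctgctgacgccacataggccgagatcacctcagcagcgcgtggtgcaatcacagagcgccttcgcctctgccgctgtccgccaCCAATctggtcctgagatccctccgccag
Msmo1 (chr8:64733579-64733828, - strand): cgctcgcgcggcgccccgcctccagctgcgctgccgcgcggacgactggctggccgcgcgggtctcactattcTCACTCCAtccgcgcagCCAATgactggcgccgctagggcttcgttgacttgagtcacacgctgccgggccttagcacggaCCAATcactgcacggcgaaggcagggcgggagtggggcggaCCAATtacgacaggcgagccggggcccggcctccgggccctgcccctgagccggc
Srebf2 (chr15:82147019-82147268, + strand): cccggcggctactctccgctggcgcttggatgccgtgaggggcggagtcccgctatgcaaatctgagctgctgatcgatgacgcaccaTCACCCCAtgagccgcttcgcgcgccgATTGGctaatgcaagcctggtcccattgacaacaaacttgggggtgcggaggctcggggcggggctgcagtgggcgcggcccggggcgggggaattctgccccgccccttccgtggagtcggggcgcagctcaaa
Acly (chr11:100528001-100528250, - strand): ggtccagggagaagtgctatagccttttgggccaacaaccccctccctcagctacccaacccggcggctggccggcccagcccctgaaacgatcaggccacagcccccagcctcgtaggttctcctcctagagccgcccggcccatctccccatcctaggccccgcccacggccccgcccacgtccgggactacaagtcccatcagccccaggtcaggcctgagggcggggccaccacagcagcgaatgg
In Hmgcs1 the element begins 137 bases before the start, between NF-Y boxes that begin 45, 176 and 237 bases before it. In Msmo1 the shorter element begins 177 bases before the start, beside an NF-Y box at 160 and with further boxes at 96 and 55. In Srebf2 the shorter element begins at 162 and an NF-Y box at 135. Insig1 holds an NF-Y box at 216 and Cyp51 one at 29, while the Acly window holds neither element. Acly does hold the Sp1 box, which is not marked. Among windows not printed, those of Fads2, Scap, Acat2, Acaca and Elovl6 hold neither element. These genes rose in dKO by 0.92, 0.51, 0.36, 0.21 and 0.17. Pmvk, Ggps1 and Fasn hold an NF-Y box and did not pass in dKO (0.01, 0.07 and 0.09). Whether elements and changes go together was not tested.

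Depth was 21090624 to 56249770 reads per library, as recovered from the deposited values, and even Fdps, the member with the fewest reads, had at least 116 in each library. Within each line, log2 values of any 2 libraries had r = 0.9938 to 0.9961 across genes. The dCD libraries scattered more among themselves, with chi-square per degree of freedom of 3.02 to 4.39 between pairs, against 1.58 to 2.01 for pairs of WT or dKO. Kmt2c was lower in every dKO library, at 21.1 ± 1.22 TPM in WT, 7.66 ± 0.292 in dKO and 26.95 ± 1.65 in dCD (SD, n = 3). Kmt2d was not lower in dKO, at 66.4 ± 1.08 TPM in WT, 82.9 ± 2.21 in dKO and 63.2 ± 7.44 in dCD (SD, n = 3), and where the 2 genes were edited is not given in the labels, so the Kmt2d level checks nothing. The 8 stem cell markers summed to 8380 to 8442 TPM in WT, 6790.2 to 6847 in dKO and 6092 to 6218 in dCD. Of these 8, 6 were lower and 1 higher in dKO, and 7 were lower in dCD. The higher one was Klf4, at 475 TPM in WT, 808 in dKO and 384 in dCD. Lipid-rich cell types were near absent. Hepatocyte and visceral endoderm markers, 7 genes, summed to at most 3.18 TPM, with Alb, Afp, Ttr and Apoc2 at 0 in WT, Alb, Ttr and Apoc2 at 0 in dKO and Apoc2 at 0 in dCD. The 4 adipocyte markers summed to at most 0.195 TPM. Primitive endoderm markers (4 genes) were at 7.70 to 9.25 TPM in WT, 13.3 to 13.6 in dKO and 25.0 to 27.2 in dCD. Trophoblast markers (5 genes, mostly Tfap2c) summed to 56.6 to 60.1 TPM in WT, 34.0 to 36.7 in dKO and 95.8 to 98.5 in dCD. Of the 4 tested, Cdx2 and Krt7 were higher and Tfap2c lower in dKO, and all 4 were higher in dCD. Fibroblast markers (10 genes, mostly Fbln1) summed to 95.9 to 101 TPM in WT, 88.0 to 91.8 in dKO and 102 to 109 in dCD. Of the 6 tested, 3 were higher and 2 lower in dKO, and 5 were higher and 1 lower in dCD. The collagen genes Col1a1, Col1a2 and Col3a1 were higher in both, with Col1a1 at 0.470 TPM in WT, 10.2 in dKO and 7.57 in dCD, while Fbln1 was lower in both. The part of these markers in the results below was not tested. In bulk RNA, fewer cells of a type and less RNA per cell cannot be told apart.

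Loss of Mll3 and Mll4 came with higher RNA of nearly the whole sterol branch, while with catalytically deficient proteins its genes went both ways, mostly by small amounts. Of the 20 sterol genes, 18 rose in dKO and none fell, with a median log2 fold change of 0.67, that is 1.59-fold. In dCD 7 rose and 5 fell, with a median of 0.03. Hmgcs1 and Insig1, the latter among the regulators, rose most in dKO. Set directly against dCD, all 20 sterol genes were higher in dKO, with a median of 0.60. The calls are from limma on log2(TPM + 1) with Benjamini-Hochberg adjustment over the 16179 tested genes and a threshold of 0.05. The fit separates small differences, so the background is high. In dKO against WT 43.4% of the tested genes passed as higher and 28.4% as lower, with a median of 0.10. In dCD against WT 28.9% were higher and 29.5% lower, with a median of -0.01. In dKO against dCD 42.3% were higher and 27% lower, with a median of 0.10. The sterol counts of 18 of 20 in dKO against WT and 20 of 20 in dKO against dCD lie above these shares. In dCD against WT, 7 of 20 higher and 5 of 20 lower are near the background. The comparisons share libraries with each other, so their values stand side by side and are not independent.

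The fatty acid branch had a lower median in dKO, with large rises of the desaturases Scd2, Fads1 and Fads2 and small values for Acly, Acaca, Fasn and Elovl6. Of 8 genes 6 rose in dKO with a median of 0.27, 5 rose in dCD with a median of 0.12, and 4 rose and 1 fell in dKO against dCD with a median of 0.15. The shares higher were 75.0% in dKO, 62.5% in dCD and 50.0% in dKO against dCD, beside 43.4%, 28.9% and 42.3% of all tested genes. The 4 of 8 higher in dKO against dCD are thus near the background share, and the other 2 counts lie above theirs. All 5 regulators rose in dKO (median 0.51) and were higher than in dCD (median 0.58), while in dCD 2 rose and 1 fell (median 0.03). Over all 33 members this gives 29 higher and none lower in dKO, 14 higher and 6 lower in dCD, and 29 higher and 1 lower in dKO against dCD. Changes were moderate. At a further threshold of at least 2-fold, 3 members were higher in dKO (Hmgcs1, Insig1 and Stard4), where 6.01% of all tested genes were.

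Part of the rise in dKO depends on scaling. The median of all genes in dKO against WT was 0.10 on the TPM scale and 0.01 after median-ratio scaling, with 60.4% and 49.9% of calls higher, and in dKO against dCD the shares were 61.0% and 48.9%. The sterol median was then 0.57 in dKO against WT and 0.50 in dKO against dCD. Under that scaling 2 members were called lower in dKO against WT, Pmvk and Acly. For the fatty acid genes the median under that scaling was 0.17 in dKO against WT and 0.05 in dKO against dCD, over 1.5 times smaller than on the TPM scale.

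**Figure D1:**
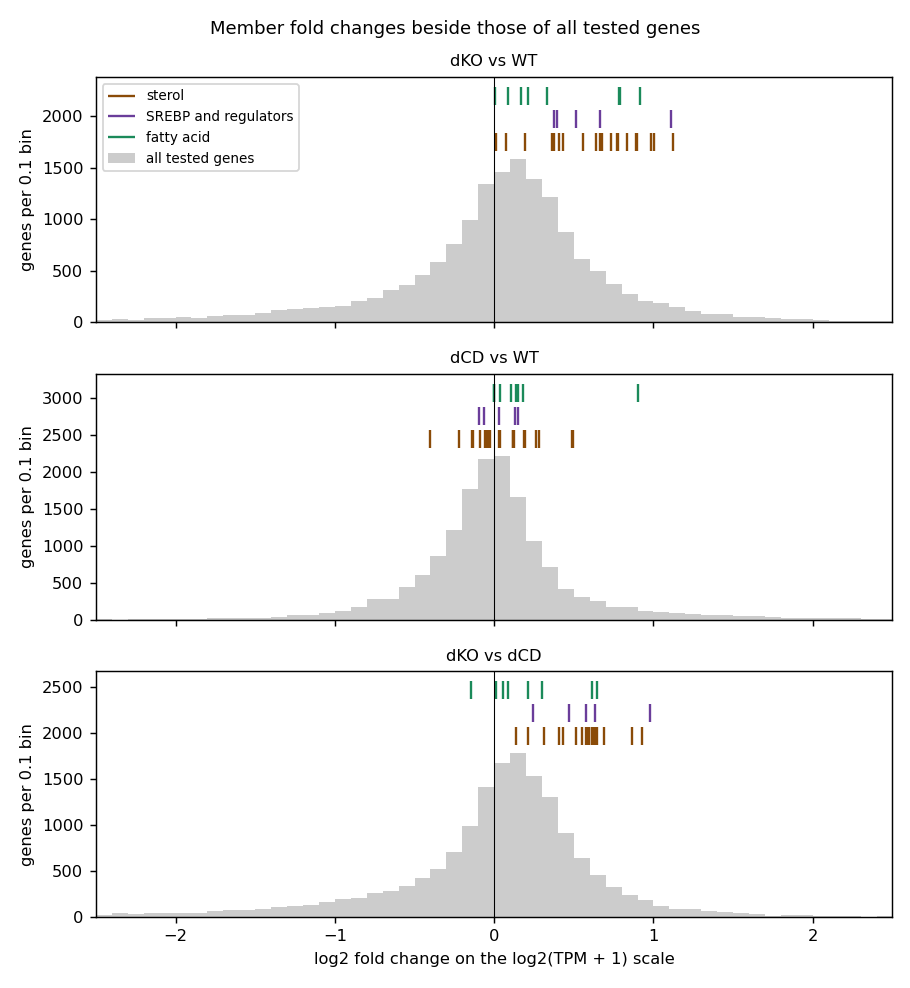
Log2 fold changes on the log2(TPM + 1) scale (x axis) of all 16179 tested genes as grey bars (genes per bin, y axis) and of each member as a coloured line, for the 3 comparisons. In dKO against WT and against dCD the sterol and regulator lines lie to the right of the centre of all genes, except Pmvk and Ggps1 in dKO against WT, and have medians of 0.51 to 0.67, while in dCD against WT they straddle 0; tested genes outside the range shown are left out.

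The summed levels show the same contrast between branches. TPM is per transcript length, so genes may be added and compared. The 20 sterol genes summed to 1030.6 ± 16.2 TPM in WT, 1660 ± 33.5 in dKO and 1120 ± 9.43 in dCD (SD, n = 3), which is 1.61-fold the WT level in dKO and 1.09-fold in dCD. The 8 fatty acid genes summed to 1345 ± 33.4 TPM in WT, 1705 ± 37.4 in dKO and 1501 ± 38.0 in dCD, that is 1.27-fold and 1.12-fold. Abundant genes weigh most in such sums. Hmgcs1 alone went from a mean of 185 TPM in WT to 260 in dCD, while the squalene to cholesterol genes summed to 1.02-fold of WT in dCD. Scd2 alone went from a mean of 265 TPM in WT to 456 in dKO. The 5 regulators summed to 518 ± 14.97, 803 ± 12.3 and 513 ± 20.6 TPM. The ratio of sterol to fatty acid TPM within a library, which a scaling factor per library leaves as it is, was 0.760 to 0.773 in WT, 0.970 to 0.978 in dKO and 0.737 to 0.763 in dCD. The dKO ratios lay above all others, and those of WT and dCD overlapped. An exact permutation test of 3 against 3 libraries cannot go below p = 0.10, so no p is given for the ratio.

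**Figure D2:**
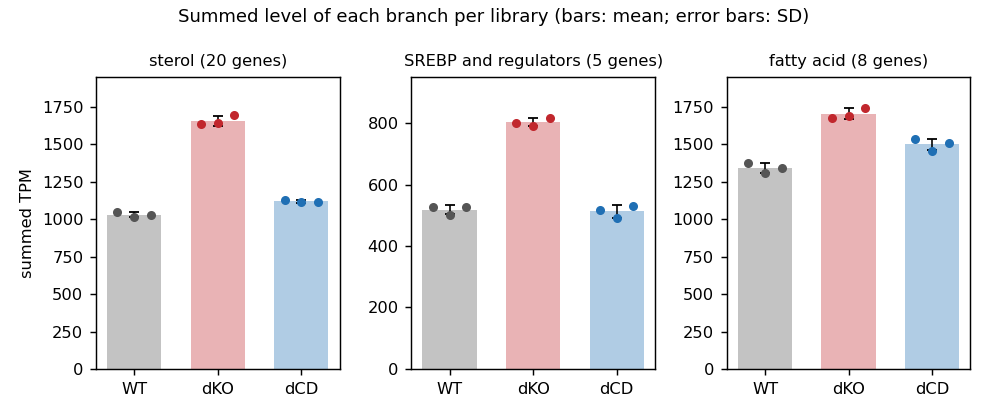
Summed TPM (y axis) of the 20 sterol genes, the 5 SREBP regulators and the 8 fatty acid genes in each line; points are the 3 libraries, bars their mean and error bars the SD. The dKO libraries lie above the WT and dCD libraries in all 3 panels, and the dCD libraries overlap WT only for the regulators.

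The mevalonate and isoprenoid steps turn acetyl-CoA into farnesyl and geranylgeranyl diphosphate. Of these 8 genes 6 rose in dKO (median 0.42) and 2 rose and 3 fell in dCD (median 0.04). All 8 were higher in dKO than in dCD (median 0.50). Hmgcs1, which makes HMG-CoA, was the member with the largest rise in dKO. Its level was 189, 178 and 189 TPM in the WT libraries, 391, 399 and 421 in dKO and 269, 255 and 256 in dCD. The lines did not overlap, and dCD lay between the others. The log2 fold change was 1.12 (SE 0.04, adjusted p = 1.07e-09) in dKO against WT and 0.49 (SE 0.04, adjusted p = 1.26e-06) in dCD against WT, and dKO exceeded dCD by 0.63 (SE 0.04, adjusted p = 9.66e-08) in limma's fit. Idi1, the isomerase of isopentenyl diphosphate, was at 60.0, 58.9 and 66.2 TPM in the WT libraries, 99.8, 105 and 114 in dKO and 71.2, 73.1 and 66.7 in dCD. Its dKO libraries stood clear of the rest at 0.78 (SE 0.06, adjusted p = 7.17e-07) against WT by limma. In dCD the value was 0.19 (SE 0.06, adjusted p = 0.0188), a call lost without WT replicate 1 or 2 or dCD replicate 1 or 2 (adjusted p 0.0537 to 0.0702).

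Fdps, which makes farnesyl diphosphate, was the member with the lowest level in WT. Its values were 4.73, 5.03 and 4.33 TPM in the WT libraries, 8.96, 7.57 and 8.90 in dKO and 4.75, 5.54 and 5.25 in dCD. It rose in dKO by 0.73 and was higher there than in dCD by 0.61 (limma adjusted p = 1.53e-05 and 6.52e-05), while dCD and WT overlapped. Acat2, the cytosolic thiolase that starts the pathway, and Mvd, the decarboxylase, rose in dKO by 0.36 and 0.43, and neither passed in dCD (-0.05 and 0.12). Mvd passed in dCD without WT replicate 1 (adjusted p = 0.00535), with voom on recovered reads (0.0187) and with a replicate block (0.0211).

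In dCD, 3 of the 8 mevalonate and isoprenoid genes were called lower, near the 29.5% of all tested genes. Mvk, mevalonate kinase, was at 48.6, 51.4 and 46.0 TPM in the WT libraries, 65.1, 66.1 and 63.3 in dKO and 41.1, 41.8 and 41.8 in dCD. The lines did not overlap, with dKO highest and dCD lowest. Limma gave 0.41 (SE 0.04, adjusted p = 4.2e-06) in dKO and -0.22 (SE 0.04, adjusted p = 0.000659) in dCD against WT, and the direct difference was 0.63 (SE 0.04, adjusted p = 1.85e-07). Pmvk, the next kinase, was at 102, 100.03 and 96.5 TPM in the WT libraries, 99.2, 103 and 98.3 in dKO and 93.0, 86.3 and 93.1 in dCD. WT and dKO overlapped for Pmvk, and its dKO value of 0.01 (adjusted p = 0.831) turned to -0.09 under median-ratio scaling, called lower with adjusted p = 0.0304. It fell in dCD by limma, at -0.13 (SE 0.04, adjusted p = 0.00898). The direct excess of dKO over dCD, 0.14, was lost under that scaling (0.03, adjusted p = 0.386). Ggps1, which makes geranylgeranyl diphosphate and leads away from sterols, had 0.07 in dKO (adjusted p = 0.0972, and -0.02 under median-ratio scaling) and fell in dCD at -0.14 (SE 0.04, adjusted p = 0.0083) by limma.

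The steps from squalene to cholesterol moved as a block in dKO. All 11 genes rose against WT (median 0.67, range 0.19 to 0.99) and all 11 were higher than in dCD (median 0.63, range 0.43 to 0.93), while in dCD 4 rose and 2 fell (median 0.03). Cyp51, the lanosterol demethylase, rose most of the block against WT. It was at 56.2, 53.5 and 56.4 TPM in the WT libraries, 109, 111 and 112 in dKO and 61.0, 60.8 and 59.2 in dCD. Its dKO libraries were near 2.0-fold the WT level, and the dCD libraries lay just above WT without overlap. Limma gave 0.99 (SE 0.03, adjusted p = 5.07e-10) in dKO, 0.12 (SE 0.03, adjusted p = 0.00363) in dCD and 0.86 (SE 0.03, adjusted p = 1.64e-09) for the direct difference. Dhcr7, the reductase of the last step, was at 32.7, 29.8 and 29.9 TPM in the WT libraries, 57.5, 55.7 and 60.4 in dKO and 30.3, 28.3 and 31.4 in dCD. WT and dCD overlapped and dKO stood apart, with 0.89 (SE 0.05, adjusted p = 7.62e-08) in dKO against WT and 0.93 against dCD by limma.

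Sqle, squalene epoxidase, an early control point of the block, was at 55.1, 52.5 and 50.6 TPM in the WT libraries, 78.3, 77.4 and 78.5 in dKO and 50.5, 48.2 and 50.0 in dCD. It rose in dKO by 0.56 (SE 0.03, adjusted p = 1.27e-07) in limma's fit. The fall in dCD, -0.09 (SE 0.03, adjusted p = 0.0455) by limma, was lost with no filter on low values, with only the WT and dCD libraries, and without WT replicate 1 or 2 or dCD replicate 2 or 3 (adjusted p 0.0689 to 0.165). Msmo1, the methylsterol oxidase, was at 30.9, 29.8 and 31.1 TPM in the WT libraries, 50.3, 52.1 and 56.6 in dKO and 35.1, 36.2 and 34.0 in dCD. All its dCD libraries lay between the others, with 0.77 in dKO and 0.19 in dCD (limma adjusted p = 9.05e-08 and 0.00374). Sc5d, a sterol desaturase, and Hsd17b7, a keto-reductase, behaved likewise, at 0.89 and 0.83 in dKO and 0.26 and 0.28 in dCD. Fdft1 (squalene synthase), Lss (lanosterol synthase), Ebp (a sterol isomerase) and Nsdhl (a sterol dehydrogenase) rose in dKO by 0.64, 0.67, 0.66 and 0.38 and did not pass in dCD. Nsdhl passed in dCD without WT replicate 1 (-0.10, adjusted p = 0.0360).

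Tm7sf2, a sterol reductase, had the smallest rise of the block in dKO and the largest fall in dCD. Its level was 23.9, 24.4 and 24.9 TPM in the WT libraries, 25.2, 28.7 and 30.5 in dKO and 17.4, 19.0 and 18.4 in dCD. The dCD libraries were the lowest, and dKO lay only just above WT. By limma the dCD value was -0.40 (SE 0.06, adjusted p = 0.000291). The dKO value was 0.19 (SE 0.06, adjusted p = 0.0173), a call lost under median-ratio scaling (0.09, adjusted p = 0.209), under quantile normalization (0.10, adjusted p = 0.177), and without WT replicate 1 or dKO replicate 2 or 3 (adjusted p 0.0517 to 0.0695). Tm7sf2 overlaps Vps51, which rose in both lines (0.94 in dKO, 0.55 in dCD), and Fdft1 overlaps Ctsb (0.39 in dKO). Strand was not stated for the counting, so reads of overlapping genes cannot be told apart.

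Stard4 carries sterol between membranes and is a known SREBP target. It was at 28.3, 25.9 and 27.4 TPM in the WT libraries, 54.1, 54.8 and 57.7 in dKO and 39.4, 38.5 and 38.1 in dCD. All 3 lines were apart, with dCD between WT and dKO. Limma gave 1.004 (SE 0.04, adjusted p = 4.14e-09) in dKO, 0.49 (SE 0.04, adjusted p = 2.04e-06) in dCD and 0.51 (SE 0.04, adjusted p = 8.82e-07) for the difference. Stard4 and Hmgcs1 had the largest rises in dCD among the sterol genes, and both were still higher in dKO.

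**Figure D3:**
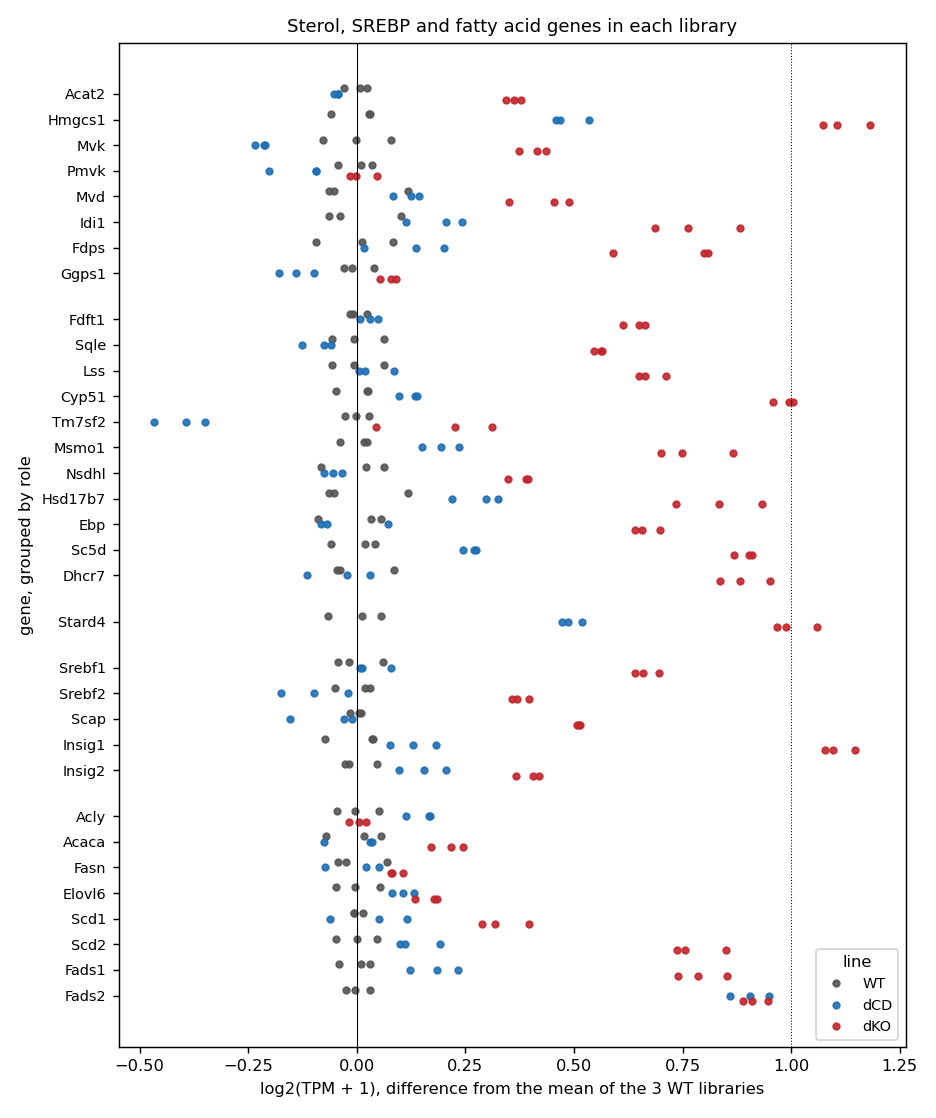
Log2(TPM + 1) of each member in each library as the difference from the mean of the 3 WT libraries (x axis), with genes grouped by role on the y axis and 1 point per library; the dotted line marks a 2-fold rise. Red dKO points lie to the right of WT and dCD for most sterol genes and regulators, blue dCD points stay near 0 except for Hmgcs1, Stard4, Fads2 and Tm7sf2, and for Fads2 the dKO and dCD points lie on top of each other.

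Among the regulators, Insig1 showed the largest change. It was at 126, 117 and 127 TPM in the WT libraries, 265, 262 and 274 in dKO and 140.2, 130.1 and 135 in dCD. The dKO libraries were 2.16-fold the WT mean and clear of both other lines. Limma gave 1.11 (SE 0.04, adjusted p = 1.67e-09) in dKO and 0.98 (SE 0.04, adjusted p = 5.17e-09) against dCD, and in dCD 0.13 (SE 0.04, adjusted p = 0.0127), which was lost without dCD replicate 1 (adjusted p = 0.0517). Insig2, the other retention protein, was at 13.6, 13.7 and 14.4 TPM in the WT libraries, 18.7, 18.2 and 18.9 in dKO and 16.2, 14.9 and 15.6 in dCD. It rose less, by 0.40 in dKO and 0.15 in dCD (limma adjusted p = 1e-05 and 0.00988). The ratio of Insig1 to Insig2 TPM within a library was 8.54 to 9.28 in WT, 14.1 to 14.5 in dKO and 8.66 to 8.70 in dCD.

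Srebf2, the main factor of the sterol branch, was the second most abundant member in WT. Its level was 292, 279 and 295 TPM in the WT libraries, 372, 369.8 and 379.9 in dKO and 269, 255 and 284 in dCD. The rise in dKO was 0.37 (SE 0.04, adjusted p = 6.53e-06) by limma. Its dCD libraries overlapped WT, and the lower call, -0.10 (SE 0.04, adjusted p = 0.0455) in limma's fit, was lost with no filter on low values, with only the WT and dCD libraries, and without WT replicate 1 or 3 or dCD replicate 1 or 2 (adjusted p 0.0790 to 0.157). Srebf1, the main factor of the fatty acid branch, was at 71.2, 67.4 and 66.2 TPM in the WT libraries, 111, 107 and 108 in dKO and 68.6, 68.8 and 72.1 in dCD. WT and dCD overlapped, and dKO was higher by 0.67 (SE 0.03, adjusted p = 3.1e-08) in limma's fit. Srebf1 overlaps Rai1, which rose to 4.61-fold the WT level in dKO and 1.90-fold in dCD, from 8.13 ± 0.28 TPM in WT. With strand not stated, the part of Rai1 reads in the Srebf1 value was not tested. The ratio of Srebf2 to Srebf1 TPM was 4.10 to 4.45 in WT, 3.35 to 3.51 in dKO and 3.71 to 3.95 in dCD. Scap, the escort of both precursors, was at 24.1, 23.7 and 24.1 TPM in the WT libraries, 34.5, 34.6 and 34.6 in dKO and 23.8, 21.4 and 23.5 in dCD. It rose in dKO by 0.51 (SE 0.04, adjusted p = 9.05e-07) with limma and did not pass in dCD (-0.06, adjusted p = 0.187).

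**Figure D4:**
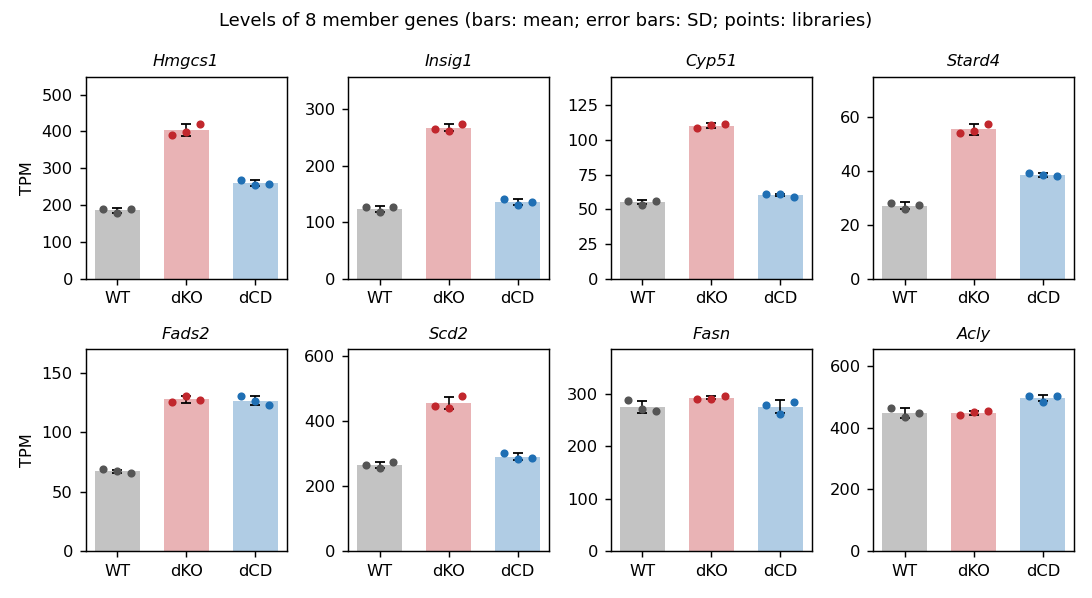
TPM (y axis, from 0) of 8 members in the 3 lines; points are libraries, bars the mean of 3 and error bars the SD. Hmgcs1, Insig1, Cyp51, Stard4 and Scd2 are highest in dKO, Fads2 is raised in both dKO and dCD (1.90-fold and 1.89-fold of WT), and Fasn and Acly stay within 1.11-fold of WT.

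The fatty acid genes that lead up to saturated chains come first. Acly, which supplies cytosolic acetyl-CoA to both branches, was the most abundant member in WT. It was at 464, 434 and 447 TPM in the WT libraries, 443, 450.3 and 455 in dKO and 504, 485 and 503 in dCD. WT and dKO overlapped, and all dCD libraries lay above both. The dKO value of 0.0035 (limma adjusted p = 0.914) turned to -0.10 under median-ratio scaling, called lower with adjusted p = 0.00384. Acly rose in dCD by 0.15 (SE 0.03, adjusted p = 0.000882) and was the only member called lower in dKO than in dCD on the TPM scale, at -0.15 (SE 0.03, adjusted p = 0.000759) by limma.

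Fasn, the fatty acid synthase, was at 288, 270.1 and 266 TPM in the WT libraries, 290.3, 291 and 296 in dKO and 279, 261 and 285 in dCD. Its dKO libraries lay narrowly above WT. Limma gave 0.09 (SE 0.04, adjusted p = 0.0529), which missed the threshold. It was called higher under 5 other settings and without WT replicate 1 (adjusted p = 0.0114), and the value turned to -0.01 under median-ratio scaling. In dCD the libraries overlapped WT (adjusted p = 0.991). Acaca, the acetyl-CoA carboxylase that feeds Fasn, was at 23.5, 21.4 and 22.9 TPM in the WT libraries, 25.5, 26.4 and 26.9 in dKO and 23.1, 21.4 and 23.1 in dCD. It rose slightly in dKO by 0.21 (SE 0.05, adjusted p = 0.00181) in limma's fit, while dCD overlapped WT. Acaca overlaps Tada2a, which fell in dKO (-0.38). Elovl6, an elongase of saturated chains, was at 136, 132 and 141 TPM in the WT libraries, 149.5, 154 and 155 in dKO and 149, 147 and 144 in dCD. It rose in both lines, by 0.17 (SE 0.03, adjusted p = 0.000463) in dKO and 0.11 (SE 0.03, adjusted p = 0.00961) in dCD with limma, but the dKO call was lost under median-ratio scaling (0.06, adjusted p = 0.0527).

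The desaturases put double bonds into these chains. Scd2, a stearoyl-CoA desaturase that makes monounsaturated chains, was at 265, 256 and 273 TPM in the WT libraries, 448, 442 and 478 in dKO and 302, 284 and 286 in dCD. Its dKO libraries were far above the rest, with 0.78 (SE 0.04, adjusted p = 2.14e-08) in dKO and 0.13 (SE 0.04, adjusted p = 0.0105) in dCD by limma. Scd1, its paralog, was at 58.8, 57.9 and 57.9 TPM in the WT libraries, 71.3, 72.8 and 76.9 in dKO and 63.1, 55.8 and 60.3 in dCD. It rose in dKO by 0.33 (SE 0.04, adjusted p = 5.55e-05) with limma, and dCD overlapped WT. How reads that match both paralogs were counted is not given in the sources used here. The Scd2 to Scd1 ratio was 4.42 to 4.72 in WT, 6.07 to 6.28 in dKO and 4.74 to 5.09 in dCD. Fads1, a desaturase of polyunsaturated chains, was at 74.4, 73.2 and 70.8 TPM in the WT libraries, 122, 126 and 132 in dKO and 82.9, 79.4 and 85.7 in dCD. It followed Scd2, with 0.79 (SE 0.04, adjusted p = 2.01e-08) in dKO, 0.18 (SE 0.04, adjusted p = 0.00203) in dCD and 0.61 for the direct difference by limma.

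Fads2, the desaturase that acts before Fads1, had the largest rise of all members in dCD. It was at 68.7, 67.1 and 66.0 TPM in the WT libraries, 125, 131 and 127 in dKO and 131, 127 and 123 in dCD. Both mutant lines lay well above WT and overlapped each other. Limma gave 0.92 (SE 0.03, adjusted p = 1.06e-09) in dKO and 0.90 (SE 0.03, adjusted p = 3.34e-09) in dCD. The direct difference was 0.01 (SE 0.03, adjusted p = 0.747), and under median-ratio scaling it was -0.09 and called lower in dKO (adjusted p = 0.0110). The Fads2 to Fads1 ratio was 0.916 to 0.933 in WT, 0.962 to 1.03 in dKO and 1.43 to 1.60 in dCD. In the dCD libraries the ratio lay above that of WT and dKO without overlap.

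Neighbouring genes of the pathways that are not members were counted from lists. Of 12 other genes of sterol synthesis, uptake and trafficking, 8 rose and 2 fell in dKO (median 0.39), 5 rose and 3 fell in dCD (median -0.01), and 10 were higher and 2 lower in dKO than in dCD (median 0.33). The shares higher were thus 66.7%, 41.7% and 83.3%, against 43.4%, 28.9% and 42.3% of all tested genes. Lipa, the lysosomal lipase that frees cholesterol from esters, rose by 2.09 in dKO and 0.69 in dCD on the log2 scale. Soat1, which makes cholesterol esters, rose by 0.77 and 0.50. Npc2, which binds cholesterol in the lysosome, fell, with log2 fold changes of -0.59 and -0.13.

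Of 10 genes of SREBP cleavage and of degradation in the endoplasmic reticulum, 7 rose and 2 fell in dKO (median 0.26), 4 rose and 1 fell in dCD (median 0.02), and 9 were higher in dKO than in dCD. Faf2 and Ubxn4, cofactors of degradation at the endoplasmic reticulum, rose by 0.47 and 0.51 in dKO and 0.30 and 0.29 in dCD. Fbxw7, a ligase subunit that acts on nuclear SREBP, was at 0.34 in dKO and did not pass in dCD.

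Of 19 other genes of fatty acid synthesis, elongation and activation, 11 rose and 4 fell in dKO (median 0.37), 8 rose and 8 fell in dCD (median 0.02), and 12 were higher and 4 lower in dKO than in dCD (median 0.24). The shares higher were 57.9%, 42.1% and 63.2%, against 43.4%, 28.9% and 42.3% of all tested genes. Elovl4, an elongase of very long chains, was at 3.30 ± 0.249 TPM in WT, 15.1 ± 0.626 in dKO and 4.84 ± 0.104 in dCD (SD, n = 3). Mid1ip1, an activator of acetyl-CoA carboxylase, was at 15.1 ± 1.35 TPM in WT, 54.3 ± 1.10 in dKO and 18.2 ± 1.56 in dCD (SD, n = 3). Both rose far more in dKO (1.90 and 1.79) than in dCD (0.44 and 0.26), with direct differences of 1.46 and 1.53. Fabp5, a fatty acid binding protein, resembled Fads2 in rising in both lines, by 1.34 and 1.08. Slc25a1, which exports the citrate used by Acly, fell in both, with -0.60 and -0.29. Aacs, which activates acetoacetate for lipid synthesis, rose by 0.63 in dKO and was at -0.27 in dCD.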

How the data were processed

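Polyadenylated RNA of 9 libraries (3 per line) was analysed, grouped by sample title; the chromatin and nascent RNA samples of the series were not analysed here. The deposited table holds TPM values computed by the authors, 1 per gene and library, and gene lengths. HISAT2, featureCounts, DESeq2 and the mm9 build are named per the submitters' processing notes, without versions or roles. Not given in the sources used here are the annotation, the strand setting and the handling of multi-mapping reads. TPM times length came out as whole multiples of 1 step per library for 100% of values within 0.01, which gave the reads per library.

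Genes with at least 1 TPM in at least 3 libraries were tested on log2(TPM + 1) with limma 3.58.1 in R 4.3.3 (lmFit, eBayes with trend; all 9 libraries; two-sided; Benjamini-Hochberg over 16179 genes; threshold 0.05). Fold changes on this scale understate those of low genes. Folds in text are ratios of mean TPM, except the 1.59-fold of the sterol median and the 2-fold threshold, which are on the log2(TPM + 1) scale. Alternatives were a pseudocount of 0.1, no filter, a minimum of 5 TPM, scaling each library by its median ratio to the mean library, quantile normalization, voom on the recovered reads, only the 6 libraries compared, a replicate block, a 2-fold threshold and leaving out each library. Same-numbered libraries did not deviate together (r from -0.0494 to 0.0424 over 9 pairs), so the numbers were not taken as pairs. All members are named, with up to 3 called genes per contrast of each further list; some of these are not reported here. Members and lists were chosen with earlier results of these data known. Promoters came from RefSeq (GRCm38.p6). The script was tested on simulated data. Other tools were matplotlib 3.10.9, numpy 2.4.6, pandas 2.3.3 and Python 3.11.15.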

Additional observations from a re-analysis of the deposited data

Results flagged for a closer look

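Among members and the further lists, 10 genes were called in opposite directions against WT in the 2 mutant lines. Each also passed in limma's direct test of dKO against dCD. That test comes from the same fit, so opposite calls all but fix its outcome and it adds no support. The share of all tested genes with opposite calls is not given here, so the count has no background beside it. Calls were common among all genes, with 43.4% higher and 28.4% lower in dKO, and 28.9% higher and 29.5% lower in dCD. Among members, the difference of dKO from dCD on the log2 scale was 0.63 for Mvk (0.41 in dKO, -0.22 in dCD), 0.65 for Sqle (0.56 and -0.09), 0.60 for Tm7sf2 (0.19 and -0.40) and 0.47 for Srebf2 (0.37 and -0.10). The dCD calls of Sqle and Srebf2 and the dKO call of Tm7sf2 were lost under some alternatives. Outside the members it was 3.36 for the cholesterol exporter Abca1 (2.12 and -1.23), 0.42 for the phospholipid acyltransferase Lpcat3 (0.27 and -0.15), 0.90 for Aacs (0.63 and -0.27), 0.44 for the fatty acid elongation reductase Tecr (0.38 and -0.06), -0.18 for the prenyltransferase subunit Rabggtb (-0.09 and 0.10) and -1.74 for the carnitine carrier Slc25a20 (-1.31 and 0.44). Tecr and Rabggtb fall outside the naming rule and are named because of this pattern.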

How the results depend on the processing

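Leaving aside the 2-fold threshold, 27 of 33 members kept direction and call under all 14 alternatives in dKO against WT, 22 of 33 in dCD against WT and 29 of 33 in dKO against dCD. At 2-fold, called genes fell to 2249, 1123 and 1774, members higher to 3, 0 and 0, sterol genes higher to 2, 0 and 0, regulators higher to 1, 0 and 0 and fatty acid genes higher to 0 in each; members lower fell to 0 in dCD against WT (sterol genes 0) and to 0 in dKO against dCD. With median-ratio scaling, 2 members (1 sterol gene) were lower in dKO against WT and 2 in dKO against dCD. That scaling and quantile normalization gave sterol medians of 0.57 and 0.61 and fatty acid medians of 0.17 and 0.21 in dKO against WT, and 0.50 and 0.54, and 0.048 and 0.098, in dKO against dCD. Signs turned for values near 0. In dKO against WT these were Pmvk (-0.094 median-ratio, -0.021 quantile, -0.021 voom), Ggps1 (-0.025 median-ratio, -0.013 quantile), Acly (-0.10, -0.023 and -0.022) and Fasn (-0.015 median-ratio). In dCD against WT they were Acaca (0.0067 quantile, 0.0021 voom) and Fasn (0.0014 median-ratio, 0.00059 voom). In dKO against dCD they were Fads2 (-0.094, -0.039 and -0.0097), Fasn (-0.016 median-ratio) and Elovl6 (-0.046 median-ratio). Leaving out 1 library at a time gave -0.012 to 0.026 for Pmvk, -0.019 to 0.029 for Acly in dKO against WT; 1 to 2 for SREBP and regulators called higher, -0.076 to 0.0016 for Ebp, -0.068 to 0.0072 for Dhcr7, -0.039 to 0.033 for Acaca, -0.026 to 0.036 for Fasn, -0.0049 to 0.083 for Scd1 in dCD against WT; 0.12 to 0.17 for median log2 fold change of fatty acid members, -0.011 to 0.033 for Fads2 in dKO against dCD. The cause of these changes was not tested. With a replicate block, members higher in dKO against WT numbered 30, with Fasn added, against 29 without it, and the block moved no count of calls by over 1.5 times; it also added Mvd in dCD against WT and Fasn in dKO against dCD. Depth left at least 116 reads per library for every member, so counting error limits mainly Fdps.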

Other observations

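The groups here are isoprenoid branch and prenylation genes, liver X receptor genes and targets, and fatty acid oxidation genes. In these, the counts of genes higher in dKO were near or below the share of all tested genes (43.4%). For the other counts, the shares of all tested genes were 28.4% lower in dKO, and 28.9% higher and 29.5% lower in dCD. Some counts lie above these, such as fatty acid oxidation genes lower in dKO or higher in dCD, and liver X receptor genes lower in dCD. All are given as values. Of 11 isoprenoid branch and prenylation genes, which use farnesyl and geranylgeranyl diphosphate for other ends than sterols, 4 rose and 4 fell in dKO (median -0.02) and 2 rose and 4 fell in dCD (median -0.04). Fntb and Fnta, the subunits of protein farnesyltransferase, fell in both lines, with log2 fold changes of -1.54 and -0.43 in dKO and -0.57 and -0.19 in dCD. Coq2, an enzyme of ubiquinone synthesis, rose by 0.66 in dKO. Of 8 liver X receptor genes and targets 6 were tested, and 2 rose and 2 fell in dKO (median 0.10) while 1 rose and 4 fell in dCD (median -0.24). Abca1, which exports cholesterol, was at 7.91 TPM in WT, 37.9 in dKO and 2.79 in dCD (means of 3 libraries), and Abcg1, a related exporter, fell in both lines (-1.09 in dKO and -0.40 in dCD).

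Of 16 fatty acid oxidation genes 14 were tested, and 6 rose and 7 fell in dKO (median -0.11) while 7 rose and 3 fell in dCD (median 0.04). Slc25a20, the carnitine carrier of the mitochondrial membrane, was at 98.2 TPM in WT, 39.1 in dKO and 133 in dCD. Acadm, a medium-chain dehydrogenase, fell in both lines (-0.95 in dKO and -0.25 in dCD), Acadl, a long-chain one, rose by 0.66 and 0.30, and Cpt1a, which starts import of fatty acids into mitochondria, fell in both (-0.30 and -0.57).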
